A study of Mus musculus with 2 samples.

Results

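Oxidative phosphorylation is carried out by 5 protein complexes of the inner mitochondrial membrane, and the genes examined here encode their nuclear-encoded subunits. They were taken as the protein-coding rows of the gene table whose symbol starts with Ndufa, Ndufb, Ndufc, Ndufs, Ndufv, Uqcr, Cox4 to Cox8 or Atp5, together with Sdha, Sdhb, Sdhc and Sdhd. This rule found 94 of the 54532 genes. Of these, 84 carry the names of subunits of complexes I to V, and 10 encode proteins with similar names that are not subunits, namely 8 assembly factors of complex I, Cox7a2l and Atp5s.

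RNA was sequenced from aortic macrophages of male ApoE-/- mice on the C57BL/6J background, whose age is given as 6 weeks. The lack of apolipoprotein E, shared by both groups, raises blood lipids. The PDR group, a model of Phlegm-Dampness Retention syndrome, ate high-fat food during 4 weeks. The SKYD group, a model of Spleen and Kidney Yang Deficiency syndrome, received propylthiouracil, a drug that blocks thyroid hormone synthesis, by gavage at 10 mg/kg per day for 4 weeks and then the high-fat diet for 2 weeks. Cells of the aorta were released with trypsin and sorted on F4/80 and CD11b, and the cells of 5 mice were pooled into 1 library per group. The steps took 4 weeks in PDR and 2 weeks more in SKYD, so that the drug, the time on the diet, the age at sampling and the syndrome cannot be told apart, and with 1 library per group no difference has a replicate check. The reads on genes summed to 23086889 for PDR and 25427863 for SKYD.

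Electrons from NADH enter the respiratory chain at complex I and those from succinate at complex II, and they pass through coenzyme Q, complex III and cytochrome c to complex IV, which reduces oxygen to water. Complexes I, III and IV pump protons, and complex V, the ATP synthase, uses their return to make ATP. Complexes I, III, IV and V combine nuclear-encoded subunits with a few encoded in mitochondrial DNA, and in macrophages the balance between this pathway and glycolysis is known to shift with activation.

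The macrophage label was first set against marker genes. All 11 macrophage markers were expressed in both libraries, with summed levels of 24531 FPKM (fragments per length of gene and size of library) in PDR and 47043 FPKM in SKYD, most of it from Lyz2, the gene of lysozyme, and 4 of the 11 were more than 2-fold higher in SKYD. Of the 11, 2 were higher in PDR, Csf1r at 57.7 and 44.9 FPKM and Fcgr1 at 51.9 and 35.3 FPKM. The sort markers were also present, Adgre1 (F4/80) at 87.3 and 93.3 FPKM and Itgam (CD11b) at 8.84 and 14.4 FPKM. Markers of other cells were present too and differed between the libraries. Of 10 immature T cell markers, 10 were more than 2-fold higher in SKYD, where their levels summed to 1090 FPKM against 104 FPKM in PDR. Cd8b1 was the most abundant in SKYD (535 FPKM) and Lck in PDR (47.9 FPKM), with Rag1, Rag2 and Ptcra at 0 in PDR. Of 6 B cell markers, 5 were more than 2-fold higher in PDR (summed 1680 against 383 FPKM). Cd79b led this list in PDR and Cd79a in SKYD. Of 9 hepatocyte markers, 8 were more than 2-fold higher in PDR (2158 against 729 FPKM, led by Apoa2). Of 8 neutrophil markers, 4 were more than 2-fold higher in PDR (summed 4550 against 3498 FPKM, led by S100a9). Of 8 erythroid markers, 6 were compared and 0 passed 2-fold (20988 against 28335 FPKM, led by Hba-a1), with Epor at 0 in PDR. In pooled bulk RNA, fewer cells of a type and less RNA per cell cannot be told apart, and the part of this mixture in the differences of the respiratory genes was not tested.

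Respiratory genes were expressed at high and similar levels in both libraries. Of the 94 members, 89 reached a mean of 1 FPKM and were compared, and their median level was 123 FPKM in PDR and 146 FPKM in SKYD. The difference is given as log2(FPKM + 1) of PDR minus SKYD, so that a negative value means a lower level in PDR. Its median over the 89 genes was -0.19, beside -0.0035 over all 10399 genes compared and 0.0010 over the 8706 other protein-coding genes. Of the 89 genes, 60 were lower and 29 higher in PDR. No member was more than 2-fold higher in PDR, where 7.38% of all genes compared were, and 2 members, Cox6a2 and Cox6b2, were more than 2-fold higher in SKYD, where 6.91% of all genes were.

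**Figure D1:**
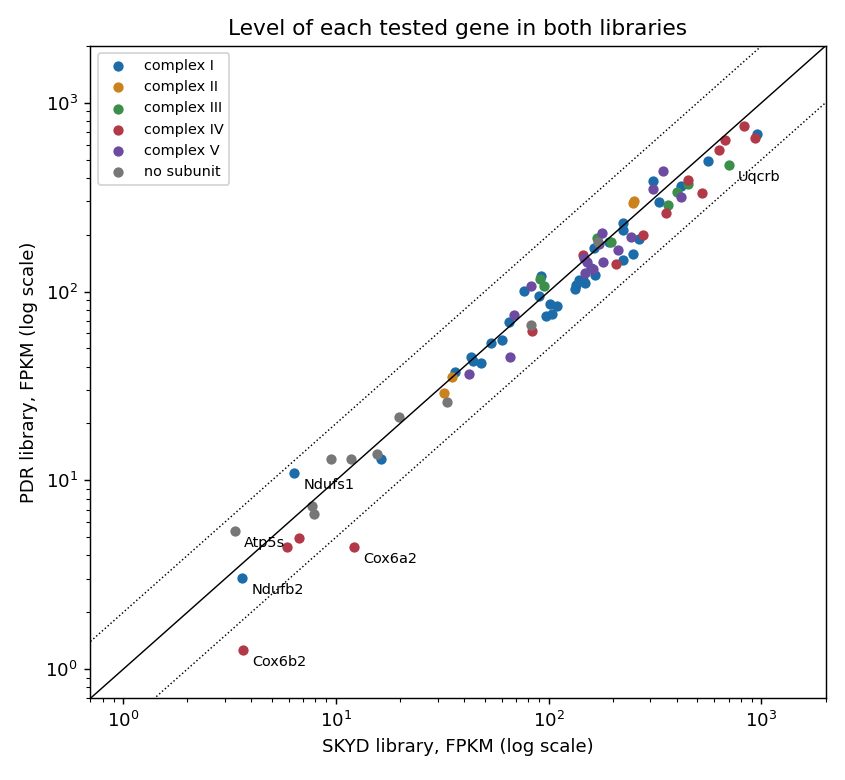
Level of the 89 compared genes in the SKYD library (horizontal axis, FPKM) and the PDR library (vertical axis, FPKM), both on log scales, with 1 point per gene coloured by complex. The solid line marks equal levels and the dotted lines a 2-fold ratio of FPKM; Cox6a2 and Cox6b2 lie past the lower dotted line.

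The ranking of the members by level was nearly the same in both libraries, with a Spearman correlation of 0.98 over the 89 genes beside 0.90 over the 8706 other protein-coding genes. These points share the same libraries and gene lengths, and genes are not independent replicates. At 1.5-fold, 1 member (Ndufs1) was higher in PDR, where 15.1% of all genes were, and 5 (Cox6a2, Cox6b2, Ndufa4, Ndufb6 and Ndufs5) were higher in SKYD, where 15% were. The reads themselves were many, so that the 95% interval from counting error lay above 0 for 21 members and below 0 for 53, beside 36.8% and 37.7% of all genes. Such intervals cover counting error alone, since the reads carry no molecular identifiers.

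Complex I, the NADH dehydrogenase, had 36 members, all of them compared, and its median difference was -0.19. Of these, 25 were lower and 11 higher in PDR. The most abundant was Ndufa1, a small subunit of the membrane arm, at 681 FPKM in PDR and 955 FPKM in SKYD, a difference of -0.49 (95% counting interval -0.53 to -0.44). Ndufa2, an accessory subunit of the matrix arm, had 492 and 558 FPKM (-0.18, interval -0.23 to -0.13). Ndufb11, of the membrane arm, had 361 and 418 FPKM (-0.21, interval -0.26 to -0.17). All 3 were somewhat lower in PDR.

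The largest differences in complex I lay in opposite directions. Ndufs5, an accessory subunit on the side of the intermembrane space, had 159 FPKM in PDR and 249 FPKM in SKYD (-0.65, interval -0.71 to -0.58). Ndufs1, the largest core subunit, which carries iron-sulfur clusters, had 10.98 and 6.36 FPKM (0.70, interval 0.61 to 0.79). Ndufs1 was thus a low-level gene that was higher in PDR, and Ndufs5 a more abundant one that was higher in SKYD. Grouped by role, a split made after the values were seen, the 7 core subunits that carry electrons had a median of -0.04, with 3 higher in PDR. The 29 accessory subunits had a median of -0.23, with 8 higher in PDR.

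Other members of complex I spanned a wide range of levels. Among the core subunits, the iron-sulfur protein Ndufs8 had 386 FPKM in PDR and 308 FPKM in SKYD (0.33), and Ndufv1, which binds the NADH-oxidising flavin, had 42.7 and 43.9 FPKM (-0.04, interval -0.11 to 0.04). Among accessory subunits, Ndufa9 (120 and 91.5 FPKM, 0.39) and Ndufa12 (101 and 76.2 FPKM, 0.40) were higher in PDR. Ndufa12 shared 23.9% of its 64-base windows with other genes, mostly a processed pseudogene that was listed at 40.8 and 86.1 FPKM. Ndufb6 (147 and 223 FPKM, -0.60) shared 29.4%, mostly with the neighbouring gene Smim27. Ndufs5, named above, shared 18.3%, mostly with a processed pseudogene listed at 14.7 and 21.4 FPKM. How the counting treated reads that match several genes was not analysed here. The lowest level of complex I was that of Ndufb2, at 3.05 and 3.62 FPKM, whose length in the table is 5628 bases and whose coding length is 315 bases. These further genes were chosen after their values were seen.

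Complex II, the succinate dehydrogenase that links the citrate cycle to the chain, was the only complex with a positive median, 0.12 over 4 genes. Sdhb, its iron-sulfur subunit, had 300.1 FPKM in PDR and 252 FPKM in SKYD (0.25, interval 0.22 to 0.28). Sdhd, a membrane anchor, had 296 and 249 FPKM (0.25, interval 0.20 to 0.29). Both were modestly higher in PDR. Sdha, the flavoprotein that oxidises succinate, was level at 35.1 and 35.1 FPKM (-0.00031, interval -0.07 to 0.07, with the sign turning under both other scalings tried for single genes). Sdhc, the other anchor, had 29.1 and 32.3 FPKM (-0.14, interval -0.22 to -0.06).

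**Figure D2:**
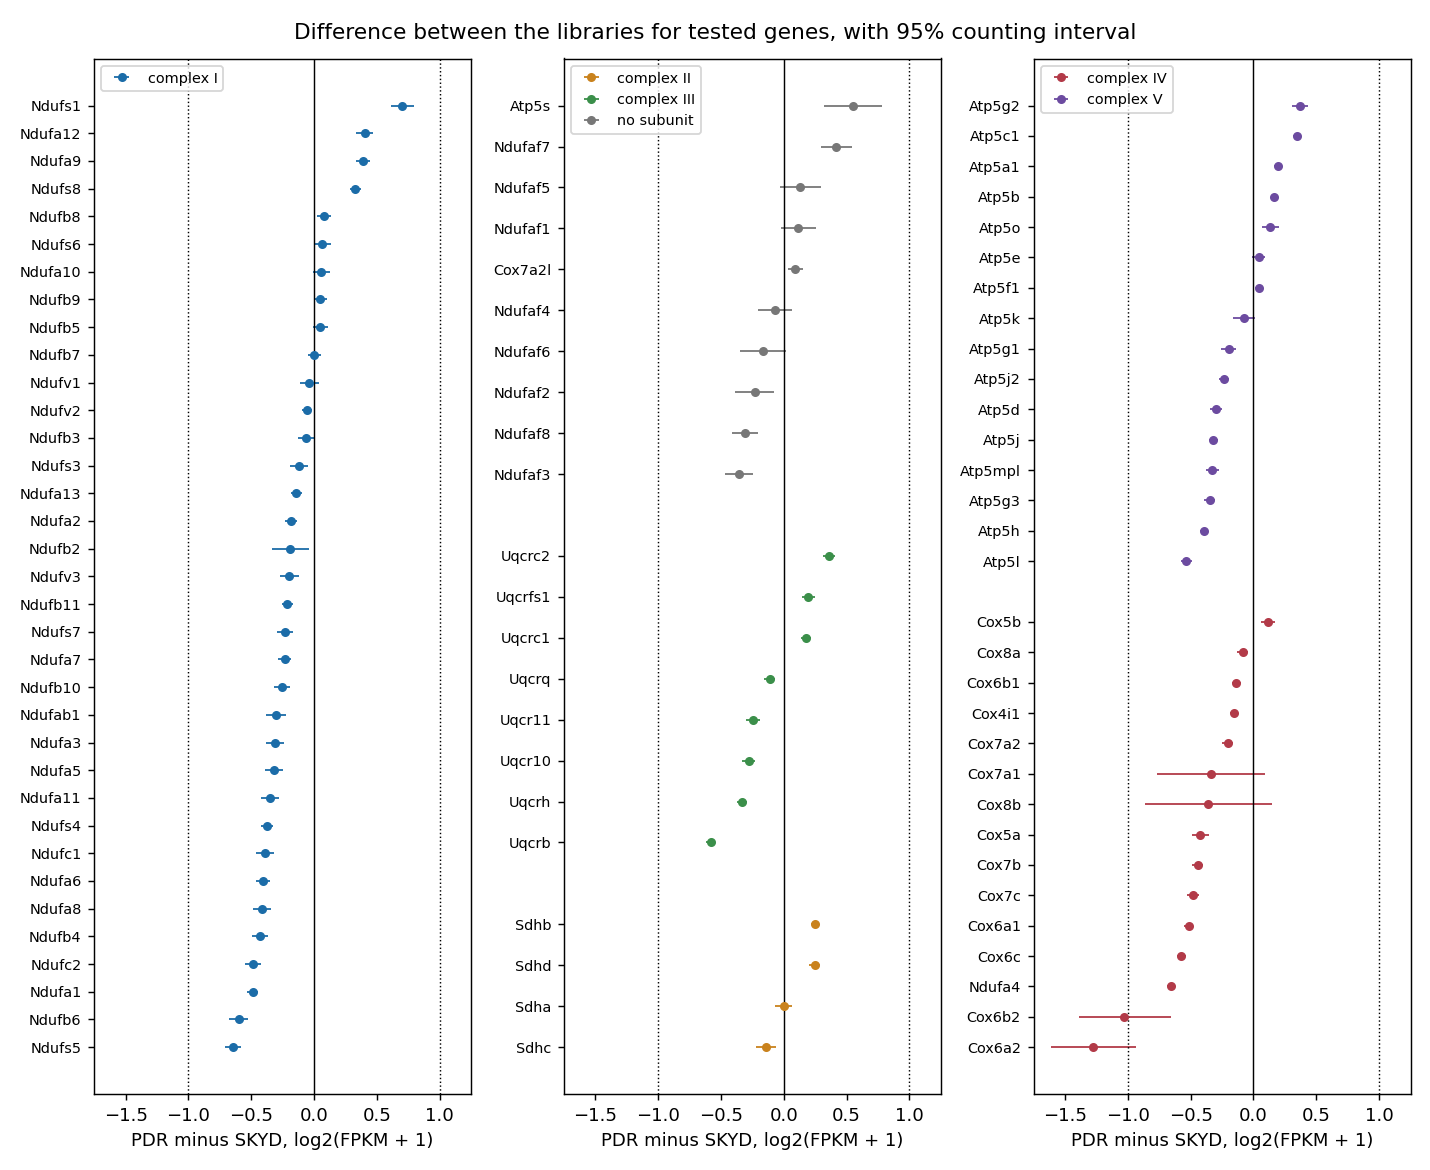
Difference of the compared genes, with 1 gene not drawn (PDR minus SKYD, log2(FPKM + 1), horizontal axis), sorted within each complex, with 95% counting intervals as bars. Dotted lines mark a 2-fold difference, which Cox6a2 and Cox6b2 pass, and in complex IV only Cox5b lies above 0.

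Complex III, which passes electrons from coenzyme Q to cytochrome c, was split among the 8 genes that the naming rule took. Its median over these 8 genes was -0.18. The core proteins Uqcrc1 (107 FPKM in PDR and 94.8 FPKM in SKYD, 0.18) and Uqcrc2 (117 and 90.7 FPKM, 0.36, interval 0.31 to 0.41) and the Rieske iron-sulfur protein Uqcrfs1 (192 and 168 FPKM, 0.20) were all higher in PDR. All 5 small subunits were lower in PDR. Uqcrb, which lies near the quinone site, had 469.8 and 704 FPKM (-0.58, interval -0.62 to -0.54). Uqcr10 had 371 and 450.2 FPKM (-0.28, interval -0.33 to -0.23), and Uqcr11 had 339 and 402 FPKM (-0.25, interval -0.30 to -0.19). The median of the small subunits was -0.28 and that of the large ones 0.20, a grouping formed after the values were seen. The split does not extend to every large subunit, since Cyc1 (-0.13) and the mitochondrially encoded mt-Cytb (-0.51) were lower in PDR. Of these genes, Uqcrb shared 35.4% of its windows with other genes and Uqcrc2 shared 23.4%.

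Complex IV, cytochrome c oxidase, had the most negative median, -0.42 over 15 compared genes of 19. Of the 15, 14 were lower in PDR, and the exception was Cox5b (157 FPKM in PDR and 144 FPKM in SKYD, 0.12, interval 0.06 to 0.17). Cox5b shared 17.2% of its windows with other genes, mostly Gm11273, listed at 83.6 and 80.6 FPKM. Among the genes lower in PDR, Cox5a shared 25.1% and Cox7c 21.8%. Cox6a1, a regulatory subunit of the dimer interface, had 652 and 933 FPKM (-0.52, interval -0.55 to -0.48). Cox6b1, which faces the intermembrane space, had 755 and 829 FPKM (-0.14, interval -0.17 to -0.10). Cox8a, the smallest subunit class, had 634 and 673 FPKM (-0.09, interval -0.13 to -0.04). These 3 were the most abundant genes of complex IV in the mean of the libraries. Ndufa4, once assigned to complex I and now to complex IV, had 333 and 526 FPKM (-0.66, interval -0.69 to -0.62), the most negative value among the common subunits.

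Several subunits of complex IV exist in a common and a tissue-restricted form, and these libraries held almost only the common forms. Cox4i1 had 564 FPKM in PDR and 629.6 FPKM in SKYD (-0.16), and its lung-enriched partner Cox4i2 had 0.92 and 0.20 FPKM from 17 and 4 reads (0.67, interval 0.20 to 0.97, and 1.75 with 0.1 in place of 1 added to FPKM). Cox7a2 had 390.4 and 451 FPKM (-0.21), and Cox7a1, the form of heart and skeletal muscle, had 4.46 and 5.91 FPKM (-0.34, interval -0.77 to 0.09). Cox8b, the partner of Cox8a in muscle and brown fat, had 4.97 and 6.67 FPKM (-0.36, interval -0.87 to 0.14). For Cox7a1 and Cox8b a difference was not detectable at this depth. Cox7b had 262 and 357 FPKM (-0.45), while its testis form Cox7b2 and the testis form Cox8c had 0 reads in both libraries. For Cox7b2, 3 reads would be 0.24 FPKM in PDR and 0.22 FPKM in SKYD, and for Cox8c 0.28 and 0.26 FPKM. Ndufa4l2, the hypoxia-inducible relative of Ndufa4, had 0 reads in PDR and 7 in SKYD (0.26 FPKM, -0.33, interval -0.33 to -0.05). Its level in SKYD was 2.19-fold that of 3 reads in PDR, a set floor and not a bound on the ratio. Its mean lay below 1 FPKM, so it was not among the genes compared.

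The pair of members past 2-fold were both tissue-restricted forms of low level. Cox6a2, the heart and skeletal muscle form of Cox6a1 (ENSMUSG00000030785, chr7:128205435-128206387, minus strand, GRCm38), had 4.45 FPKM from 71 reads in PDR and 12.2 FPKM from 207 reads in SKYD (-1.28, interval -1.61 to -0.94). Cox6b2, the testis form of Cox6b1 (ENSMUSG00000051811, chr7:4751792-4753094, minus strand), had 1.27 FPKM from 33 reads and 3.65 FPKM from 101 reads (-1.03, interval -1.39 to -0.66). Cox6a2 made up 0.677% of the summed level of its pair in PDR and 1.29% in SKYD, and Cox6b2 made up 0.168% and 0.438%. Exons of Itgad on the other strand cover 10.3% of the exons of Cox6a2, and Itgad had 1 and 30 reads. How the counting treated strand is not given in the sources used here. Of 10 striated muscle markers, 2 were compared, and the levels of the list summed to 28.6 FPKM in PDR and 10.7 FPKM in SKYD, led by Acta1 (22.8 and 8.05 FPKM), with Myh6 and Actc1 at 0 in both libraries. Of 8 brown fat markers, 3 were compared, and the list summed to 42.4 and 109 FPKM, led by Fabp4 (23.02 and 99.5 FPKM), a gene that macrophages also express, with Dio2 at 0. Elovl3 of that list, singled out after its values were seen, went the other way at 16.7 and 4.26 FPKM. Of 8 smooth muscle and pericyte markers, 2 were compared, and the list summed to 3.39 and 3.25 FPKM, with Myh11, Cnn1 and Tagln at 0. The 2 compared went opposite ways, Acta2 at 1.55 and 2.34 FPKM and Des at 1.60 and 0.59 FPKM. The summed striated muscle level was higher in PDR and Cox6a2 was higher in SKYD, and the part of muscle cells in the level of Cox6a2 was not tested.

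**Figure D3:**
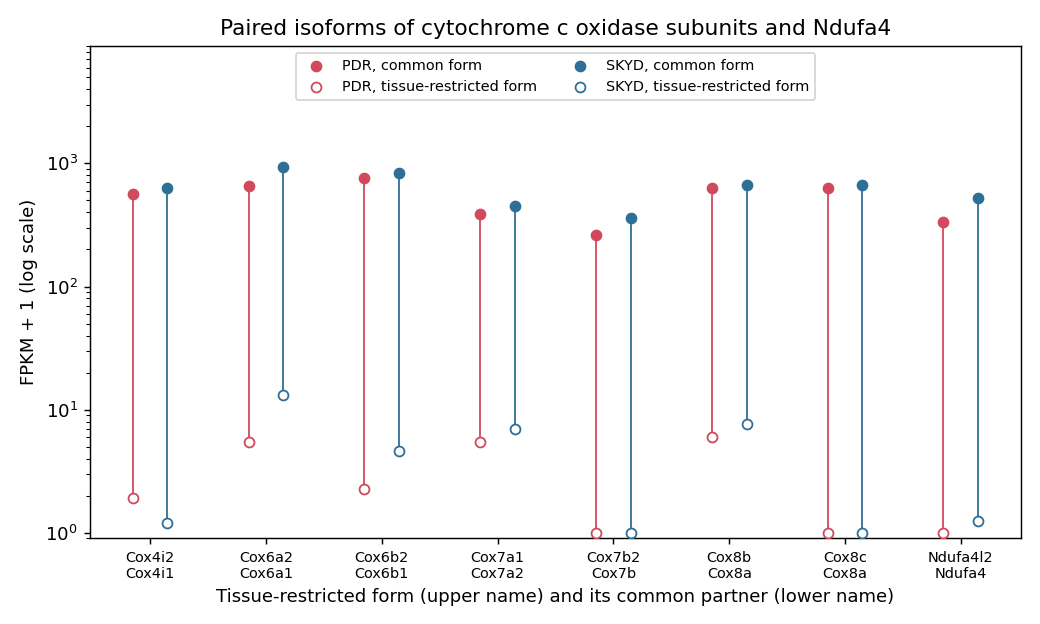
Levels of the tissue-restricted forms (open points) and their common partners (filled points) in each library, as FPKM + 1 on a log scale. Each common form lies far above its restricted partner, and Cox7b2 and Cox8c lie at 0 FPKM in both libraries.

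Promoter windows were read for short motifs, and those of 5 complex IV genes are printed as examples. Of 93 member names, 74 matched the RefSeq promoter table (GRCm38.p6), which gave 79 windows of 300 bases, set beside 21263 windows of protein-coding genes. Letters of 5 motifs were searched on both strands, and no match overlapped a match of another motif. The core bound by NRF1 (CGCATGCG), a factor known for respiratory genes, was in 11 member windows (13.9%) and 2.52% of all windows. The ETS core (CCGGAAG) was in 18 (22.8%) and 11.6%, and the YY1 core (AAGATGGC) in 10 (12.7%) and 3.05%. The estrogen-related receptor site (TCAAGGTCA) was in 2 (2.53%) and 0.334%, and the TATA box (TATAAA) in 8 (10.1%) and 12.6%. Compared members with the NRF1 core had a median difference of -0.25 (11 genes) and those without it -0.21 (62 genes). For the ETS core the medians were -0.13 (18 genes) and -0.23 (55 genes), and for the YY1 core -0.27 (10 genes) and -0.20 (63 genes). For the estrogen-related receptor site they were -0.05 (2 genes) and -0.21 (71 genes), and for the TATA box -0.27 (6 genes) and -0.20 (67 genes). The windows of the 3 most abundant common forms and of the restricted forms Cox8b and Cox6b2 are printed to set windows of abundant forms beside those of forms with few reads. They do not stand for all such forms, since the windows of the common forms Ndufa4, Cox7a2, Cox7b, Cox7c, Cox5a and Cox5b and of the restricted form Cox7a1 held none of the 5 motifs, and that of the restricted form Cox7b2 held a TATA box. All lie on the minus strand and are written 5′ to 3′ with matches in capitals. They are Cox6a1 (chr5:115348909-115349208, NRF1 and ETS cores), Cox8a (chr19:7217567-7217866, ETS cores), Cox6b1 (chr7:30626065-30626364, an ETS core), Cox8b (chr7:140900397-140900696, a TATA box) and Cox6b2 (chr7:4753045-4753344, none of the 5). A match describes letters and is not a shown binding site.
Cox6a1: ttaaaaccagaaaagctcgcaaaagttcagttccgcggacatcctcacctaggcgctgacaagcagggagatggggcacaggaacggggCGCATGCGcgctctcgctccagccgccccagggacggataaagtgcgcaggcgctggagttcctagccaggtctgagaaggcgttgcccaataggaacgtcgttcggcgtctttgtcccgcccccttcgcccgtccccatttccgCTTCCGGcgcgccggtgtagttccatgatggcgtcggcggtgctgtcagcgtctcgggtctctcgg
Cox8a: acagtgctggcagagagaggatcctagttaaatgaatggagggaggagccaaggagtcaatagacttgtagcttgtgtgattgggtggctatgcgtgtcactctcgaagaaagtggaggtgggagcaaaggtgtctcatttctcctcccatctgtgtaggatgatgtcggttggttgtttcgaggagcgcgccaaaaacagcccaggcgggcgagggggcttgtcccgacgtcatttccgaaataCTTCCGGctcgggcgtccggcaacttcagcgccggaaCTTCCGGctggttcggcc
Cox6b1: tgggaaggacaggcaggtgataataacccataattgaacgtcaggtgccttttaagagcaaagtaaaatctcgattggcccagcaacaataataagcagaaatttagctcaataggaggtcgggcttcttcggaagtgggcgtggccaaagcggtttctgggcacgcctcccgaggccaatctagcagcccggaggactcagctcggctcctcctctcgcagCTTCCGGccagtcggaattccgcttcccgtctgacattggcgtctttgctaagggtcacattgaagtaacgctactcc
Cox8b: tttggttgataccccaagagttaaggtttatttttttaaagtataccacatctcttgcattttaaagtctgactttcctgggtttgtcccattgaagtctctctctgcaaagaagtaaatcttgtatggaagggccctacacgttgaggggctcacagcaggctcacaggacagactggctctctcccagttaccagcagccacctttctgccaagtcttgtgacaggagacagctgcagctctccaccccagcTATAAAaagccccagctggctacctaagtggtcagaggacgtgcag
Cox6b2: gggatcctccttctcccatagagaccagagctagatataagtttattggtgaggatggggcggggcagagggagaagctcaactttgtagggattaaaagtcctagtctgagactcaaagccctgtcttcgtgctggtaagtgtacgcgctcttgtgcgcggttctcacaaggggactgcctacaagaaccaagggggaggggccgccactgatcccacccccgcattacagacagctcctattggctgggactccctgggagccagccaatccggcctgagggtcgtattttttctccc

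Among the names without an entry in the promoter table were Ndufa2, Ndufb9, Ndufs1, Sdhc, Uqcrc2, Uqcrb, Uqcrq, Cox4i1, Cox6c, Cox6a2, Cox4i2, Ndufa4l2, Cox8c, Atp5a1, Atp5mpl, Atp5f1, Ndufaf6 and Atp5s.

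Complex V, the ATP synthase, had 16 compared genes of 17 and a median of -0.14 (-0.074 with no filter on FPKM and -0.087 from reads scaled to the sum of reads on genes), with 7 genes higher and 9 lower in PDR. A further row named Atp5o, with its own identifier, lies within exons of Donson and had 0 reads. In the catalytic head, Atp5c1, the rotating gamma subunit, had 435 FPKM in PDR and 343 FPKM in SKYD (0.34, interval 0.31 to 0.37). Atp5b, the catalytic beta subunit, had 347 and 309 FPKM (0.17, interval 0.14 to 0.19), and Atp5a1, the alpha subunit, had 205 and 179 FPKM (0.20). These large head subunits were higher in PDR, while the head subunit Atp5d had 131 and 162 FPKM (-0.30, interval -0.35 to -0.25). In the peripheral stalk, which holds the head still, Atp5h had 318 and 418 FPKM (-0.39, interval -0.43 to -0.36). Of the 4 stalk genes, 2 were lower and 2 higher in PDR (Atp5f1 at 0.04 and Atp5o at 0.13), with a median of -0.14. Atp5l, subunit g of the membrane part, had 45.2 and 65.8 FPKM (-0.53, interval -0.58 to -0.49). All 4 small membrane accessory subunits were lower in PDR, with a median of -0.28, and the 5 head subunits had a median of 0.17, a split made after the values were seen. Among the accessory subunits, Atp5k (143 and 151 FPKM, -0.07, interval -0.16 to 0.01) did not differ beyond counting error. Atp5l shared 81.1% of its windows with other genes, mostly a processed pseudogene listed at 199 and 248 FPKM. Atp5h shared 30.3%, mostly with another pseudogene. Of the 2 stalk genes higher in PDR, Atp5f1 shared 31.4%, and Atp5o shared 40.9%, mostly with an antisense gene at 0 reads.

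The c-ring of ATP synthase turns as protons pass, and 3 genes encode the same mature c subunit. Atp5g1 had 36.5 FPKM in PDR and 42.0 FPKM in SKYD (-0.20, interval -0.25 to -0.14). Atp5g2 had 107 and 82.3 FPKM (0.37, interval 0.31 to 0.44). Atp5g3 had 166 and 211 FPKM (-0.35, interval -0.39 to -0.31). Atp5g3 was the most abundant in both libraries, with 53.6% of the summed level in PDR and 63.0% in SKYD, while Atp5g2 made up 34.6% and 24.5%. Their sum was 309 and 336 FPKM. Atp5g2 shared 36.9% of its windows with other genes.

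Among the 10 proteins that are not subunits, 5 were higher and 5 lower in PDR, with a median of 0.01. Ndufaf3, an assembly factor of complex I, had the most negative difference, at 25.9 FPKM in PDR and 33.3 FPKM in SKYD (-0.35, interval -0.46 to -0.25). Atp5s, also called factor B of the ATP synthase, had the most positive difference, at 5.39 and 3.36 FPKM (0.55, interval 0.32 to 0.78). The 8 complex I assembly factors ranged from 6.59 FPKM (Ndufaf2) to 66.3 FPKM (Ndufaf8) in PDR, beside a median of 109.9 FPKM over the complex I subunits.

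Summed over genes, reads on the members made up 2.27% of all reads in PDR (exact 95% binomial interval 2.27 to 2.28%) and 2.41% in SKYD (2.40 to 2.42%). Complex IV held 0.454% (0.452 to 0.457%) in PDR and 0.555% (0.552 to 0.558%) in SKYD, a log2 ratio of -0.29. Complex II held 0.130% (0.128 to 0.131%) and 0.110% (0.109 to 0.112%), a log2 ratio of 0.24. These were the complexes with the largest shift each way. Complex I held 0.668% and 0.713% (log2 ratio -0.09), complex III held 0.258% and 0.275% (-0.09), and complex V held 0.713% and 0.710% (0.0060, interval -0.0036 to 0.016). Complex V thus took nearly equal shares of the reads in both libraries. Relative to reads on protein-coding genes outside the mitochondrial genome, the members made up 2.63% in PDR and 2.65% in SKYD (log2 ratio -0.0093), and the log2 ratio of complex I came to -0.017, that of complex III to -0.015 and that of complex V to 0.08.

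**Figure D4:**
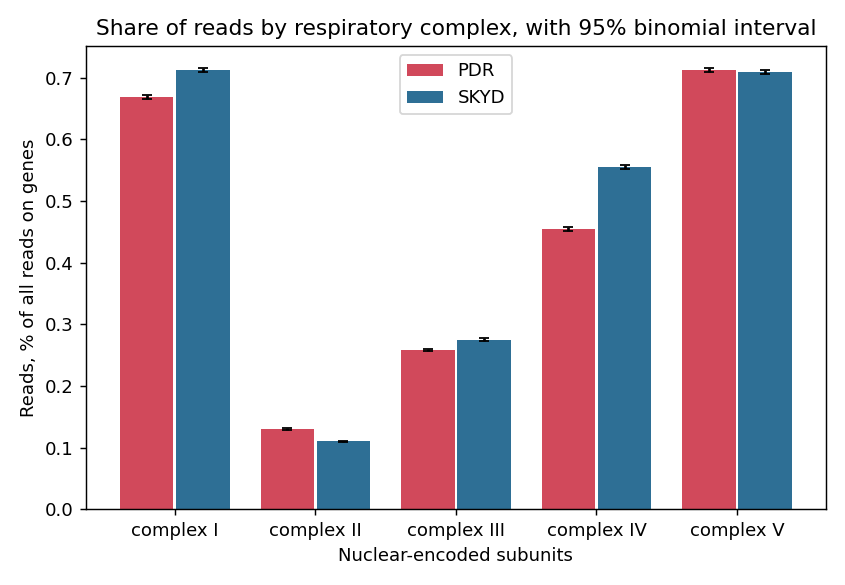
Share of all reads on genes that fell on the nuclear-encoded subunits of each complex (vertical axis, percent) in the PDR and SKYD libraries, with exact 95% binomial intervals as bars. Complex IV took 0.454% in PDR and 0.555% in SKYD, and complex II took 0.130% and 0.110%.

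Across complexes, members with a long coding sequence tended to be higher in PDR and those with a short one lower. The Spearman correlation of the difference with the longest annotated coding length was 0.61 over the 89 genes, and 0.36 with the gene length of the table in place of coding length. Over the 8695 other protein-coding genes with a coding length it was 0.17, and over those whose mean reached 50 FPKM it was 0.25 (1134 genes). The points share both libraries, and coding length had a Spearman correlation of -0.29 with mean FPKM over the 79 compared subunits. How coding length goes with gene length was not analysed here. This relation was looked for after the values were seen.

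The members were divided by coding length into 3 groups of about equal size. Of the 30 members with a coding length of 156 to 333 bases, 1 was higher in PDR, and their median was -0.32, beside -0.26 over 322 other protein-coding genes of 66 to 333 bases, of which 31.1% were higher in PDR. Of the 29 members of 336 to 525 bases, 7 were higher in PDR, and the median was -0.23 beside -0.20 over 780 other genes of 335 to 525 bases, of which 33.8% were higher. Of the 30 members of 528 to 2181 bases, 21 were higher in PDR, and the median was 0.10 beside 0.03 over 7593 other genes of 528 to 16968 bases, of which 52.5% were higher. The medians of short members and of other short genes were thus both negative, while the share of genes higher in PDR was 3.33% among the shortest members and 31.1% among the other genes. Over other genes whose mean reached 50 FPKM, the medians of the 3 classes were -0.31, -0.21 and -0.0047. Of these genes, 25.4%, 31.2% and 49.5% were higher in PDR.

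**Figure D5:**
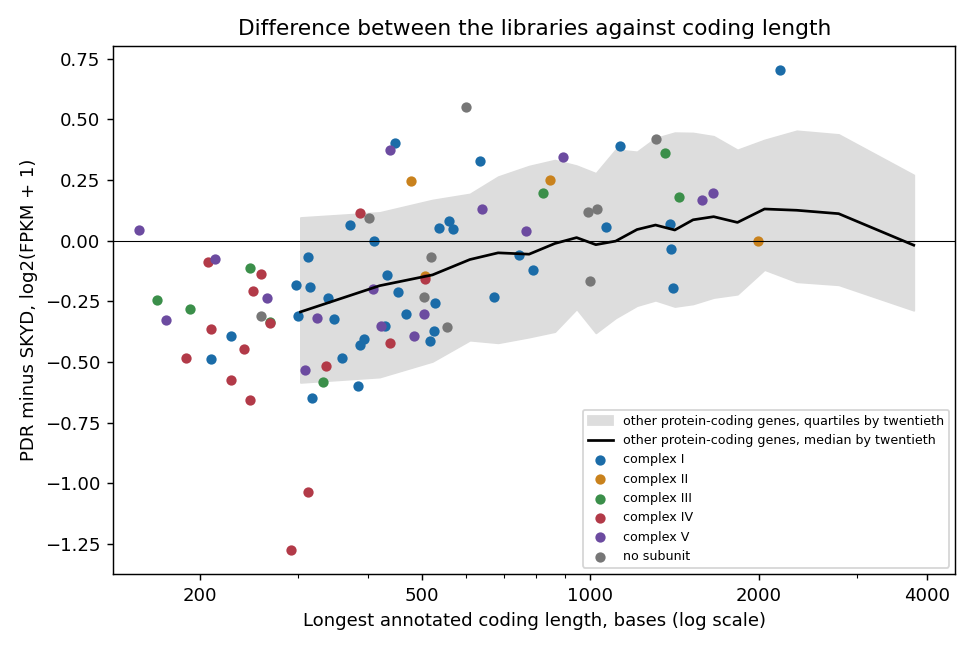
Difference of each compared gene (PDR minus SKYD, log2(FPKM + 1), vertical axis) against its longest annotated coding length in bases (horizontal axis, log scale), coloured by complex. The line and grey band give the median and quartiles of other protein-coding genes in 20 length groups; the 30 shortest members have a median of -0.32 and the 30 longest 0.10.

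Within complexes, the correlation with coding length was 0.58 in complex I (36 genes), 0.52 in complex III (8 genes) and 0.49 in complex V (16 genes), and 0.07 in complex IV (15 genes), whose compared subunits have coding lengths of at most 507 bases. The mitochondrial ribosome, another set of small nuclear-encoded mitochondrial proteins, showed 0.42 over 77 genes. The proteins of the cytosolic ribosome, a list added after the values were seen, showed 0.32 over 80 genes, yet their median difference was 0.08 (0.13 from reads scaled to the sum of reads on genes), with 54 of 80 higher in PDR at a median coding length of 453 bases. The proteasome subunits, added in the same way, had a median of 0.05 over 38 compared genes of 39 (0.10 from such scaled reads), with 1 past 2-fold each way. Whether RNA quality, fragment size or the mix of cells moved with length was not tested.

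The 13 subunits encoded in mitochondrial DNA, the partners of the nuclear-encoded ones in complexes I, III, IV and V, had a median of -0.51, and 12 of 13 were lower in PDR. The counting interval lay below 0 for 11 of them, and mt-Nd4l (8.17 and 8.22 FPKM, -0.0073, interval -0.49 to 0.48) did not differ beyond counting error. The most abundant in the mean of the libraries were mt-Cytb and mt-Nd1. Of these, mt-Cytb, of complex III, had 5434 FPKM in PDR and 7720.3 FPKM in SKYD (-0.51), and mt-Nd1, of complex I, had 5808 and 6319 FPKM (-0.12). The exception was mt-Co1, the catalytic subunit of complex IV, at 5627 and 4552 FPKM (0.31, interval 0.30 to 0.31). The most negative was mt-Atp6, the proton channel of complex V, at 141 and 299 FPKM (-1.08, interval -1.15 to -1.01), the only one past 2-fold. The 13 genes took 2.41% of reads in PDR and 2.62% in SKYD.

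Assembly factors outside the naming rule, which build the complexes, had a median of -0.16 over 37 compared genes of 40, with 13 higher in PDR, 0 past 2-fold, and Pet117 and Sco2 at 0 reads. With 0.1 in place of 1 added to FPKM, or after rescaling to TPM, 2 were more than 2-fold higher in SKYD, Cox20 among them. Cox14, needed for complex IV, had 179 FPKM in PDR and 301 FPKM in SKYD (-0.75, interval -0.81 to -0.68), and Uqcc2, needed for complex III, had 153 and 159 FPKM (-0.05). Cox20 was the most negative at 0.77 and 2.31 FPKM (-0.90, interval -1.30 to -0.45), and Bcs1l, which inserts the Rieske protein, the most positive at 7.73 and 4.67 FPKM (0.62). Like the subunits, this list leaned toward SKYD.

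The mobile electron carriers and coenzyme Q enzymes had a median of 0.00091 over 17 compared genes of 18, with 0 past 2-fold, and its sign turned at a mean of at least 5 FPKM (-0.046). Cycs, cytochrome c, had 147 FPKM in PDR and 143 FPKM in SKYD (0.04, interval -0.00074 to 0.07), and Cyc1, the cytochrome c1 subunit of complex III that the naming rule does not take, had 97.4 and 107 FPKM (-0.13). Coq10a (3.21 and 5.92 FPKM, -0.72) and Coq8a (4.04 and 2.06 FPKM, 0.72) were the extremes of the difference. For Cycs a difference was not detectable at this depth.

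Enzymes of the citrate cycle, listed together with the pyruvate dehydrogenase subunits Pdha1, Pdhb and Dlat that supply it, leaned the other way, with a median of 0.16 and 13 of 17 higher in PDR, 0 of them past 2-fold. Idh3g had 104 FPKM in PDR and 85.3 FPKM in SKYD (0.29), and Mdh2 had 76.5 and 87.3 FPKM (-0.19). Fh1, fumarase, the step after succinate dehydrogenase, had 57.3 and 29.6 FPKM (0.93, interval 0.860 to 0.998), and Idh2, the NADP-dependent enzyme, had 21.5 and 37.2 FPKM (-0.77, interval -0.86 to -0.67). Their median coding length was 1356 bases.

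Carriers and coupling proteins had a median of 0.10 over 12 compared genes of 13 (0.039 with no filter on FPKM), with 0 past 2-fold, or 1 (Ucp1) higher in SKYD with 0.1 in place of 1 added to FPKM. Slc25a5, an ADP/ATP carrier, had 620.2 FPKM in PDR and 541 FPKM in SKYD (0.20), and Ucp2, the uncoupling protein of immune cells, had 168 and 278 FPKM (-0.72, interval -0.74 to -0.70). Ucp1 (1.80 and 3.96 FPKM, -0.83) and Vdac2 (54.5 and 39.2 FPKM, 0.47) were the extremes of the difference. The regulators of mitochondrial biogenesis had a median of 0.08 over 10 compared genes of 13 (0.033 after rescaling to TPM and 0.14 at a mean of at least 5 FPKM), with 0 past 2-fold. Tfam, which packages mitochondrial DNA, had 18.6 and 14.0 FPKM (0.38), and Myc had 7.74 and 10.1 FPKM (-0.34). Esrra (1.27 and 2.32 FPKM, -0.54) and Tfb1m (3.43 and 1.88 FPKM, 0.62) were the extremes of the difference.

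The mitochondrial ribosome, which translates the mitochondrially encoded subunits, had a median of -0.08 over 77 compared genes of 78 (-0.028 from reads scaled to the sum of reads on genes), with 28 higher in PDR and 1, Mrps6 (10.8 FPKM in PDR and 27.3 FPKM in SKYD, -1.27), more than 2-fold higher in SKYD. Mrpl54 had 169 and 151 FPKM (0.17), Mrps21 had 128 and 159 FPKM (-0.31), and Mrpl9 was the most positive at 24.0 and 17.1 FPKM (0.47). No list of the pathway had a median as far from 0 as the subunits encoded in mitochondrial DNA.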

How the data were processed

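The values are FPKM as deposited by the authors, for 1 pooled library per group. The authors aligned paired-end reads with TopHat 2.0.9 on a Bowtie2 2.0.6 index and counted them per gene with HTSeq 0.6.1. Genes whose mean reached 1 FPKM entered the comparison, log2(FPKM + 1) of PDR minus SKYD, and were called past 2-fold. Reads were recovered from FPKM, gene length and the smallest step of each column, which gave whole numbers within 0.01 for 100% of values above 0. Exact 95% intervals (Clopper-Pearson) of the split of reads or of shares cover counting error only. A gene at 0 was set against a floor of 3 reads, which is 1.3e-05% of reads in PDR and 1.18e-05% in SKYD. GENCODE vM21 (GRCm38) matched 54495 gene IDs, and gave the coding lengths, the exon overlaps and the shared windows of 64 bases. Named genes were, per complex, the 3 with the highest mean FPKM and the largest difference each way, members past 2-fold, restricted forms with their partners, c-ring genes, members with at most 3 reads, and for each of 7 pathway lists the 2 highest and the extremes. The members, the 7 pathway lists and the 9 marker lists were chosen with earlier results of these data known. Role classes, length groups and the lists of cytosolic ribosomal proteins and proteasome subunits were chosen after the values were seen, with no test. Alternatives changed the pseudocount, the filter, the fold, the scaling, the sum of reads and the members. Tables were made in Python 3.11.15 with pandas 2.3.3 and numpy 2.4.6, intervals with scipy 1.17.1, and plots with matplotlib 3.10.9.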

Additional observations from a re-analysis of the deposited data

Results flagged for a closer look

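Outside the protein-coding members, 13 genes carry names that the naming rule would take, 12 of them processed pseudogenes, and 7 had more than 3 reads in a library. The higher of their reads in PDR and SKYD was 5788 for Ndufb1-ps, 244 for Ndufab1-ps, 180 for Ndufb4c, 110 for Atp5l2-ps, 58 for Cox6c2, 26 for Ndufs6b and 14 for Atp5l-ps1. They lie outside the comparisons above and are listed because their reads exceed the floor of 3 reads that a count of 0 allows. Of the 13, the gene that is not classed as a processed pseudogene was Ndufb1-ps, annotated as a long noncoding RNA with a bidirectional promoter. It had 179 FPKM in PDR and 201 FPKM in SKYD (-0.17, interval -0.22 to -0.11).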

How the results depend on the processing

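The median of the members stayed negative under every alternative run, from -0.20 to -0.15, and no complex median changed sign. The median of complex IV was -0.34 with no filter on FPKM, where genes at 0 enter. That of complex V was -0.074 with no filter, -0.087 from reads scaled to the sum of reads on genes and -0.20 without members that share sequence with other genes. That of complex III was -0.13 from such scaled reads and -0.25 without members whose exons overlap another gene. Members more than 2-fold higher in SKYD numbered 1 (Cox6a2) at a mean FPKM of at least 5, 0 without tissue-restricted isoforms and 1 (Cox6b2) without members whose exons overlap another gene, since these settings leave out the others. At 1.5-fold, 1 was higher in PDR and 5 in SKYD. The correlation with coding length was 0.36 with the gene length of the deposited table, and the cause was not tested. Over reads on protein-coding genes outside the mitochondrial genome, a smaller sum, the shares in PDR and SKYD and their log2 ratio were 0.773%, 0.783% and -0.017 for complex I, 0.150%, 0.121% and 0.31 for complex II, 0.299%, 0.302% and -0.015 for complex III, 0.526%, 0.610% and -0.21 for complex IV, 0.825%, 0.779% and 0.081 for complex V, and 2.63%, 2.65% and -0.0093 for all members. Of 195 pairs of named gene and setting, 184 lay within the counting interval and 11 outside it. Alternatives on exon overlap and on coding length were chosen after seeing the data. No paired analysis was possible because each group is 1 pooled library. Depth limits the restricted isoforms, several of which rest on fewer than 100 reads.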
